A study of Mus musculus with 3 samples.

Results

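Hprt, G6pd2, Gk and Ldhal6b are 4 mouse genes for enzymes of nucleotide, sugar, glycerol and lactate metabolism. They were chosen from the 15 genes that the array files identify by a RefSeq transcript accession, which include a further metabolic enzyme gene, Gapdh. The choice was made with earlier results of these data known. The arrays hold 60915 study probes, of which 60846 kept at least 1 spot without an outlier flag. Each of the 4 genes is read by 1 probe printed at 20 spots per array. Neurons from the dorsal root ganglia, which carry pain, touch and temperature signals from the body, were taken from C57BL/6 mice at 5 to 9 days of age and kept for 5 days in culture. They then received 1 mM melatonin, 100 µM 8-M-PDOT, which activates melatonin receptor 1B, or vehicle (1% ethanol in normal saline) for 24 h. The labels give a solvent for the vehicle culture only. Total RNA of 1 sample per condition was hybridised to 1 single-colour array, so every value below compares single arrays, without a replicate check and without a test between conditions, and the SD over spots is technical. The 2 agents were given at different doses, so their values stand side by side and are not compared with each other.

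The 4 enzymes sit at separate points of metabolism. Hprt (hypoxanthine phosphoribosyltransferase) returns the free bases hypoxanthine and guanine to the nucleotide pool, the salvage route on which the brain leans heavily, and loss of the human enzyme causes the neurological Lesch-Nyhan disease. Its transcript is also a common reference in quantitative PCR. Glucose-6-phosphate dehydrogenase opens the pentose phosphate pathway, which supplies NADPH for defence against oxidants, and glycerol kinase (Gk) phosphorylates glycerol for lipid and glycolytic use. Lactate dehydrogenases interconvert pyruvate and lactate. G6pd2 and Ldhal6b are retrogenes, intronless copies made from the transcripts of G6pdx and of a lactate dehydrogenase gene. G6pd2 is known mainly from the mouse testis, and LDHAL6B from the human testis.

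The DNA just before the annotated starts was rich in G and C for Hprt and Gk, and poorer for the retrogenes G6pd2 and Ldhal6b. The windows of the bright gene Hprt and of the retrogene G6pd2 are printed as examples. Both are 250 bases, 5′ to 3′ on the gene's own strand, from RefSeq with build GRCm38.p6. Capitals mark matches to the GC box letters GGGCGG or the TATA letters TATAAA on either strand.
Hprt, plus strand, chrX:52987828-52988077: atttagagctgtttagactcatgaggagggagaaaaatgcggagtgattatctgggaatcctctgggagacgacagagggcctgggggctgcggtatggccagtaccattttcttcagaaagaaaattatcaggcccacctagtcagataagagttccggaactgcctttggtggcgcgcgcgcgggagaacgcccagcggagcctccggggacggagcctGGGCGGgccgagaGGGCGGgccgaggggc
G6pd2, plus strand, chr5:61808593-61808842: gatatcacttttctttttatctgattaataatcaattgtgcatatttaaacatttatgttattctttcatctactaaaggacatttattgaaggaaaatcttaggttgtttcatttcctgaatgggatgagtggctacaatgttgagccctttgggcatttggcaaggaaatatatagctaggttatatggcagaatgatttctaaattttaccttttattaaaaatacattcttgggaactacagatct
The Hprt window held 17 CG pairs and 2 GC box matches at 59.6% G and C. The G6pd2 window held 0 CG pairs and 0 matches to either motif at 30% G and C, and 1.47% of 32851 mouse promoter windows of this length had a lower G and C content. The window of Gk, also on chromosome X, held 21 CG pairs and 3 GC box matches at 67.2% G and C, above the Hprt window. That of Ldhal6b on chromosome 17 held 2 CG pairs, 0 GC box matches and 3 TATA matches, of which 2 overlap. A GC box match was present in 32.7% of all windows and a TATA match in 12.4%. These are letter matches only, and nothing about binding follows from them.

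G6pd2 is close in sequence to its parent G6pdx, which bears on what its probe can read. In the start windows of both genes a run of 35 bases matched with 1 mismatch, and it ended where the G6pdx window ends. The last 30 bases of that run are shown, with the mismatch in capitals.
G6pd2: gatctgtgaacgtgtttggcagTggcaact
G6pdx: gatctgtgaacgtgtttggcagCggcaact
The difference is T23C, counted from 1 at the 5′ end of the printed stretch with the base of G6pd2 first. The probe sequence is not in the files used here, so whether the signal named G6pd2 includes G6pdx transcripts was not tested, and the same holds for Ldhal6b and its parent gene.

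The melatonin, 8-M-PDOT and vehicle arrays had 45094, 45007 and 44580 of the 60846 probes well above background, and no spot of the 4 genes was saturated. The 75th percentile of signal was 454 units on the melatonin, 328 on the 8-M-PDOT and 477 on the vehicle array. Levels were therefore set on a log2 scale relative to each array's 75th percentile, which raises every 8-M-PDOT ratio by 0.54 log2 units against unscaled signals and every melatonin ratio by 0.07. None of 36 marker genes of neurons, glia, fibroblasts, immune, endothelial or germ cells is among the named genes, so the labelled cell type was not checked here. In a bulk culture, fewer cells of a type and less RNA per cell cannot be told apart.

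Hprt had a lower signal than vehicle with each agent. Both comparisons use the same vehicle array, so they are not independent. Its signal, as lowest, median and highest of 20 spots, was 28846, 30049 and 33310 units on the melatonin array. On the 8-M-PDOT array it was 7136, 7403 and 8466 units, and on the vehicle array 47071, 51116 and 54669 units. The spots formed separate bands, and both treated arrays lay below vehicle. Each array read the gene precisely, with a coefficient of variation over spots of 5.05% (melatonin), 5.58% (8-M-PDOT) and 4.35% (vehicle).

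**Figure D1:**
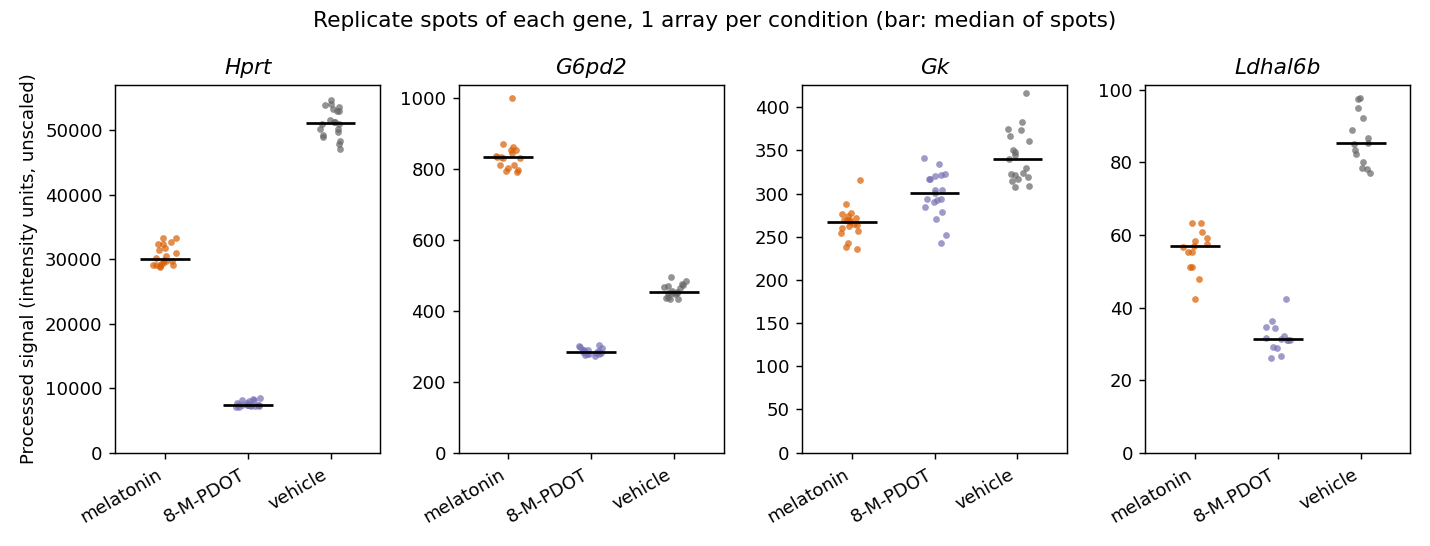
Processed signal in intensity units, before scaling between arrays, of each unflagged spot of the 4 genes on the melatonin, 8-M-PDOT and vehicle arrays (1 array each), with a bar at the median. Hprt spots lie near 30049, 7403 and 51116 units in non-overlapping bands, while the Gk spots of the treated arrays overlap those of vehicle.

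After scaling, the log2 level of Hprt was 6.07 ± 0.07 on the melatonin array and 6.74 ± 0.06 on the vehicle array (SD, n = 20 spots). The log2 ratio was -0.67 ± 0.08, a 1.59-fold lower signal, and the 20 spot ratios ran from -0.84 to -0.47. All 20 were below 0 and 0 passed 2-fold. Of 46504 probes measured in this comparison, 11.1% were as low as Hprt or lower. The direction was the same in each of 9 other ways of processing, over -0.74 to -0.48.

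On the 8-M-PDOT array Hprt stood at a log2 level of 4.53 ± 0.08, against 6.74 ± 0.06 on the vehicle array (SD, n = 20 spots). The log2 ratio was -2.21 ± 0.08, a 4.63-fold lower signal. Spot ratios ran from -2.34 to -2.04, so each of the 20 spots was past 2-fold by itself. It stayed past 2-fold in all 9 other ways of processing, which share the same arrays, with values from -2.75 without scaling to -2.12 after quantile normalization. Among 47822 measured probes, 1558 (3.26%) were as low or lower. Bright probes were often low on this array: when the probes were ordered by mean signal and split into 5 groups of equal size, 26.0% of the brightest group, which holds Hprt, were at least 2-fold lower, and the median ratio of that group was -0.26.

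G6pd2 was the one gene of the 4 with a higher signal on the melatonin array than on the vehicle array. Its spots read 793, 834 and 1001 units on the melatonin array as lowest, median and highest. They read 274, 285 and 305 units on the 8-M-PDOT array and 433, 453 and 495 units on the vehicle array. The unscaled bands did not overlap, with melatonin above and 8-M-PDOT below vehicle.

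The log2 level of G6pd2 was 0.88 ± 0.08 with melatonin and -0.06 ± 0.06 with vehicle (SD, n = 17 spots). This gave a log2 ratio of 0.94 ± 0.10, a 1.92-fold higher signal, with spot ratios from 0.75 to 1.21. All 17 spots were above 0 and 4 passed 2-fold by themselves, so the gene lay at the edge of the threshold and not past it. Scaling on Gapdh, Ppia and Hsp90ab1 moved it past 2-fold, to 1.14, and normexp background modelling gave 0.82. Of all measured probes, 6.68% were as high or higher.

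With 8-M-PDOT, G6pd2 had a log2 level of -0.20 ± 0.04, against -0.06 ± 0.06 with vehicle (SD, n = 17 spots). The log2 ratio of -0.14 ± 0.08 is small beside the array scaling, and the scaled spots of the 2 arrays overlapped. Without scaling the ratio was -0.68. All 17 spot ratios were below 0, between -0.30 and -0.03, and 46.0% of measured probes were as low or lower, so G6pd2 lay near the middle of all probes.

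Gk differed least with melatonin. Its spots read 236, 267 and 315 units (lowest, median, highest) on the melatonin array, 243, 301 and 341 units on the 8-M-PDOT array and 307, 340 and 417 units on the vehicle array. Both treated arrays overlapped the vehicle array in spot signal, before and after scaling. The log2 levels were -0.77 ± 0.10 with melatonin, -0.14 ± 0.13 with 8-M-PDOT and -0.48 ± 0.12 with vehicle (SD, n = 19 spots).

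For melatonin against vehicle the log2 ratio of Gk was -0.30 ± 0.13, with 18 of 19 spots below 0, and 29.6% of measured probes were as low or lower. Scaling on Gapdh, Ppia and Hsp90ab1 brought it to -0.10. For 8-M-PDOT against vehicle it was 0.34 ± 0.15, with 19 of 19 spots above 0, and 34.8% of measured probes were as high or higher. That sign rests on the scaling: without it the ratio was -0.20, while the other 8 ways of processing gave values above 0. No direction is given for Gk with 8-M-PDOT.

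Ldhal6b was the dimmest of the 4 probes and the least precise. Its 14 unflagged spots read 42.4, 56.9 and 63.5 units on the melatonin array, 26.0, 31.2 and 42.4 units on the 8-M-PDOT array and 77.2, 85.3 and 97.8 units on the vehicle array (lowest, median, highest). All 20 spots were flagged as well above background on each array. The medians were 3.62, 2.16 and 4.43 times the lowest signal of any probe well above background on the melatonin, 8-M-PDOT and vehicle arrays. The 14 spots gave bands in which both treated arrays lay below vehicle. With the 6 spots that carry an outlier flag on some array put back, the ranges were 34.9 to 80.4 (melatonin), 17.1 to 45.7 (8-M-PDOT) and 39.4 to 115 units (vehicle), and both treated arrays then overlapped vehicle.

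The log2 level of Ldhal6b was -3.04 ± 0.16 with melatonin and -2.47 ± 0.12 with vehicle (SD, n = 14 spots). The log2 ratio was -0.57 ± 0.16, with 14 of 14 spots below 0, and 14.5% of measured probes were as low or lower. With 8-M-PDOT the level was -3.37 ± 0.18, against -2.47 ± 0.12 with vehicle, and the ratio was -0.90 ± 0.23. Spot ratios ran from -1.37 to -0.32 and 4 of 14 passed 2-fold. The value crossed the threshold with the processing. Quantile normalization gave -1.11, no scaling gave -1.44 and the upper rows of the array gave -1.10. The authors' deposited table held log2 values of 5.18 with 8-M-PDOT and 6.18 with vehicle, just past 2-fold. Normexp modelling, which adds an offset of 50 units that exceeds the 8-M-PDOT median of this probe, gave -0.22. The sign was the same throughout.

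**Figure D2:**
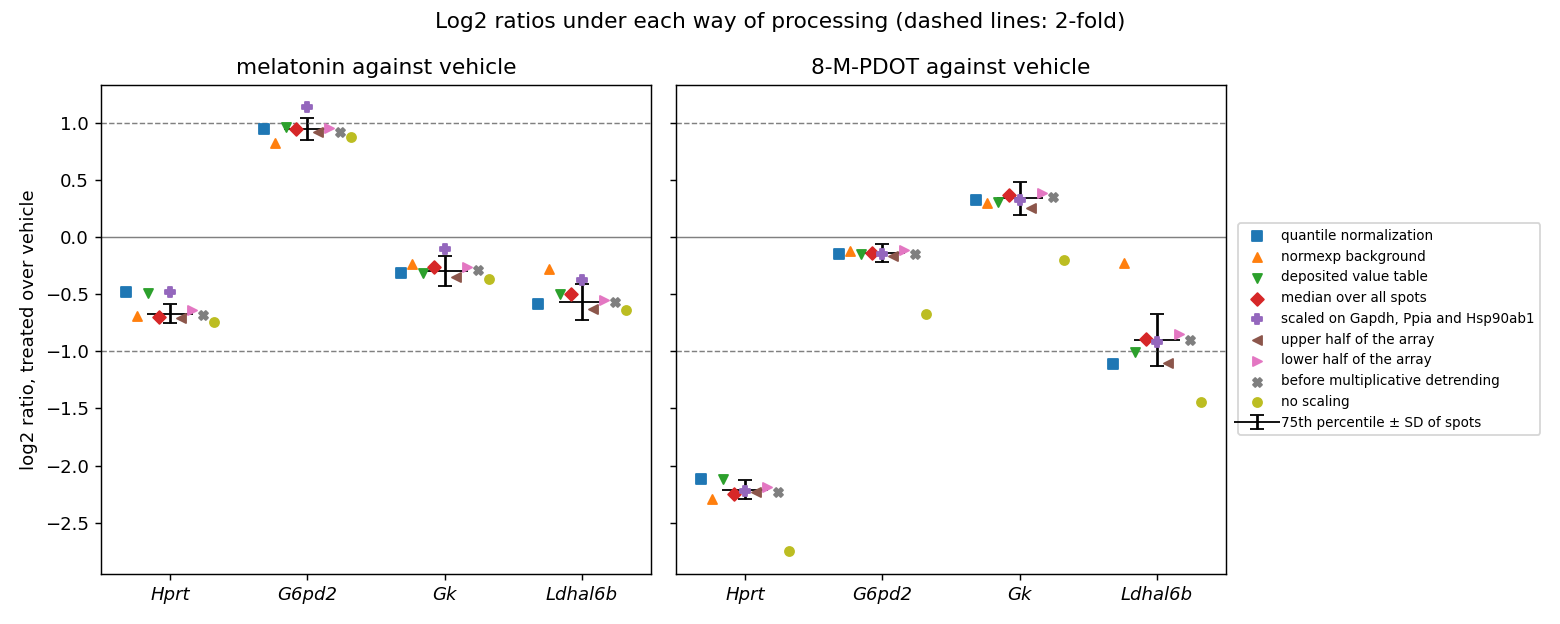
Log2 ratio of treated over vehicle signal for each gene, with melatonin left and 8-M-PDOT right; the black mark and bar are the value after 75th percentile scaling ± SD over spots, and the coloured symbols are the 9 other ways of processing. Hprt with 8-M-PDOT stays below the 2-fold line from -2.75 to -2.12, Ldhal6b spreads from -1.44 to -0.22, and Gk with 8-M-PDOT turns from 0.34 to -0.20 without scaling.

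Counted at 2-fold, the threshold named in the series design, 0 of the 4 genes were higher with melatonin, where 6.09% of all measured probes were, and 0 were lower, where 5.14% were. With 8-M-PDOT, 1 of the 4, Hprt, was at least 2-fold lower, where 15.8% of all measured probes were. None was at least 2-fold higher, where 17.1% of probes were. The share of 1 in 4 genes is not far from the background of this array, and nothing particular to the enzymes is read from it. The median log2 ratio of the 4 genes was -0.43 with melatonin and -0.52 with 8-M-PDOT, beside -0.06 and -0.04 over all measured probes.

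**Figure D3:**
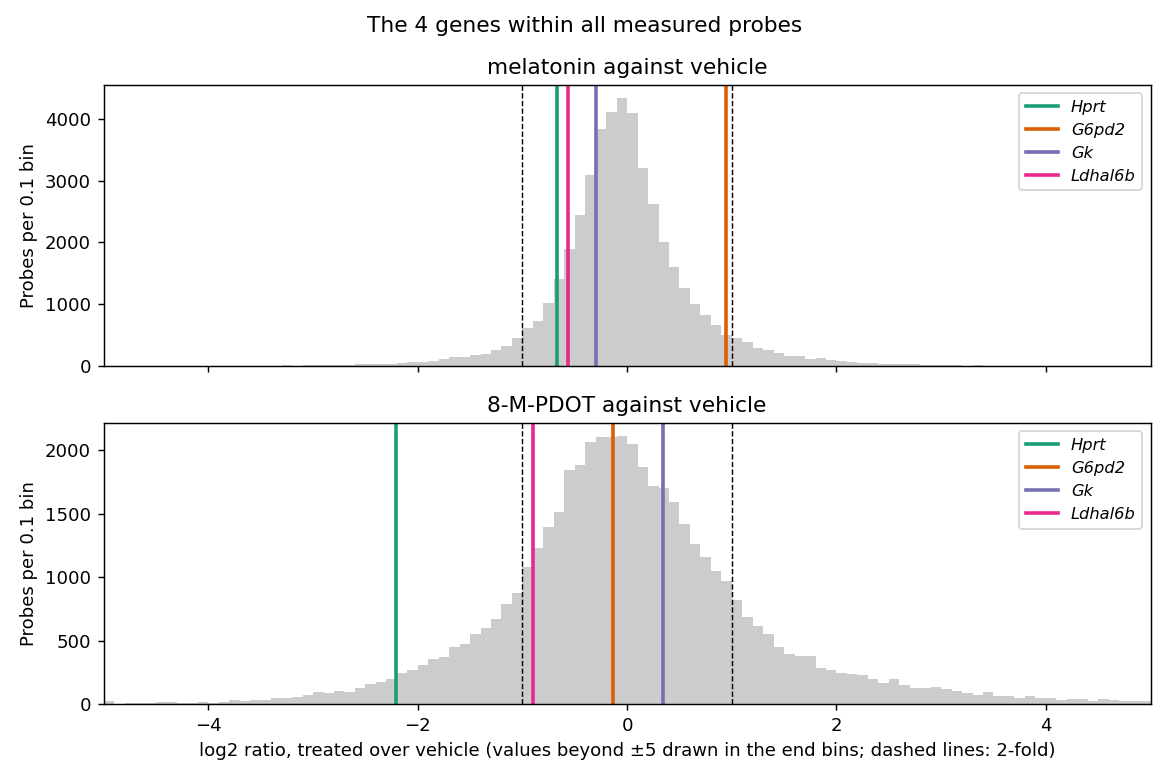
Number of measured probes per 0.1 bin of log2 ratio, treated over vehicle, for melatonin (top) and 8-M-PDOT (bottom), with coloured lines at the 4 genes and dashed lines at 2-fold. With melatonin all 4 genes lie inside the dashed lines, and with 8-M-PDOT Hprt lies outside, at -2.21; the line of Gk in the lower panel changes side of 0 without scaling.

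The position of the spots and the detrending of the arrays were also set beside these values. The vehicle array carries no multiplicative detrending fit in its file header, while the melatonin and 8-M-PDOT arrays do, with root mean squares of 0.046 and 0.044. Using the signal before that step left Hprt at -0.68 with melatonin and -2.23 with 8-M-PDOT, and G6pd2 at 0.92 with melatonin. Spots in the upper and lower rows of the array gave Hprt ratios of -2.23 and -2.19 with 8-M-PDOT, and G6pd2 ratios of 0.92 and 0.96 with melatonin.

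Placed among the 15 named genes, Hprt had the lowest ratio with 8-M-PDOT and ranked 2 from the bottom with melatonin, while G6pd2 ranked 3 from the top with melatonin. With 8-M-PDOT, Tbp (-2.18 ± 0.08) lay within the SD over spots of Hprt (-2.21 ± 0.08), so the order of these genes is not read. The other 11 named genes ran from -1.18 to 2.57 with melatonin and from -2.18 to 2.86 with 8-M-PDOT. Likeness was measured as the distance between pairs of log2 ratios, melatonin and 8-M-PDOT against the same vehicle array, over the 14 other named genes. Nearest to Hprt was Tbp, the TATA-binding protein gene, at 0.80 log2 units (0.12 with melatonin and -2.18 with 8-M-PDOT), and next was Ldhal6b at 1.31. Nearest to G6pd2 was Gusb, lysosomal beta-glucuronidase, at 0.89 (1.34 with melatonin and 0.66 with 8-M-PDOT). Next was Hsp90ab1, a chaperone gene, at 1.07 (-0.11 with melatonin and 0.02 with 8-M-PDOT). Neither had the signs of G6pd2 (0.94 and -0.14) in both comparisons, so nearest does not mean alike here. Nearest to Gk were Ppia (cyclophilin A) at 0.27 and the alpha-tubulin gene Tuba1b at 0.37. Nearest to Ldhal6b were Nono, a nuclear RNA-binding protein gene, at 0.55 and Gapdh of glycolysis at 0.92.

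**Figure D4:**
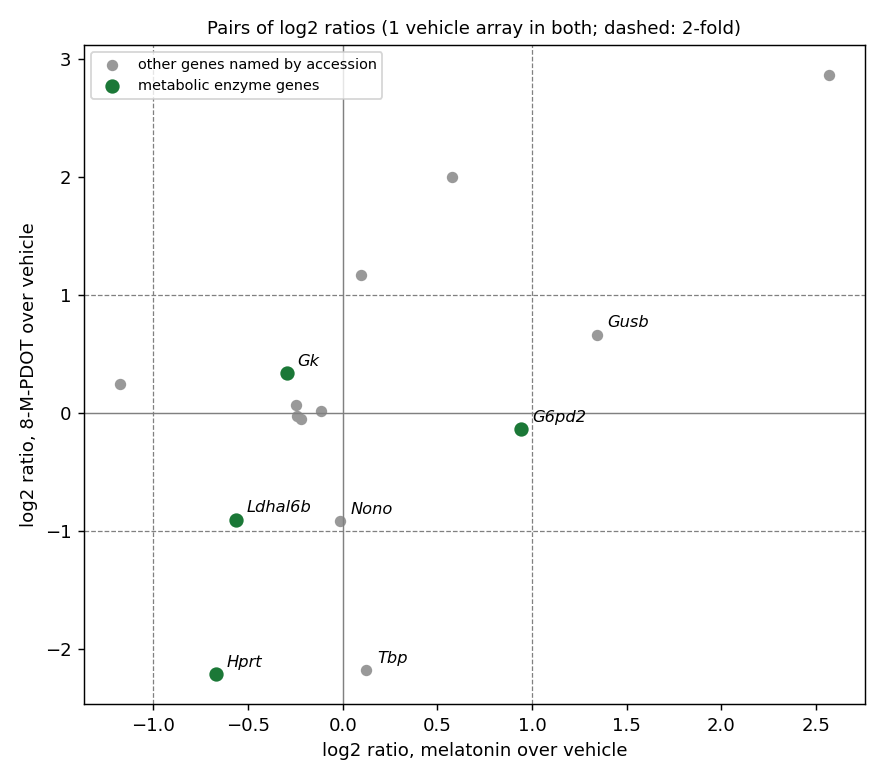
Log2 ratio with melatonin (x axis) and with 8-M-PDOT (y axis), both over the 1 vehicle array, for the 15 genes named by accession; green points are the 4 enzyme genes and dashed lines mark 2-fold. Hprt (-0.67, -2.21) lies nearest to Tbp, and G6pd2 (0.94, -0.14) nearest to Gusb (1.34, 0.66). The height of Gk changes sign without scaling.

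The wider pathways could be followed only through these genes. Of 14 listed genes of purine salvage and metabolism 1 (Hprt) is named by accession, of 9 of the pentose phosphate pathway 1 (G6pd2), of 11 of glycerol metabolism 1 (Gk), and of 15 of glycolysis and lactate metabolism 2 (Ldhal6b and Gapdh). Gapdh, which oxidises glyceraldehyde-3-phosphate, had log2 ratios of -0.22 with melatonin and -0.05 with 8-M-PDOT. Across the 4 lists, 0 named members passed 2-fold with melatonin and 1, Hprt, was at least 2-fold lower with 8-M-PDOT. The shares over all measured probes were 6.09% higher and 5.14% lower with melatonin and 15.8% lower with 8-M-PDOT. The remaining genes of the lists were not analysed here.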

How the data were processed

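Total RNA of 3 samples, 1 per condition, was labelled with Cy3 and read on single-colour arrays. Per the file headers, the deposited intensity of each spot was background-subtracted by the authors with Agilent Feature Extraction 11.0.1.1. The flags in the other deposited columns come from the same software. Multiplicative detrending differed between the arrays: the headers of both treated arrays carry a fit, and the vehicle header carries none. The authors also deposited a log2 table with no stated normalization. Over bright probes it lay within a median of 0.00065 per array of quantile-normalized log2 signals, and its column medians were 6.27.

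Here log2 processed signals were averaged over spots with no outlier flag of the spot itself on any array, and the 75th percentile over 60846 study probes was subtracted. Control spots and 15 negative-control probes were left out, and 69 probes lost all spots to flags. A probe was measured in a comparison when well above background on either array; dim values were set no lower than the dimmest probe with that flag on the array. With 1 array per condition no p-value can be had, the number of arrays sets the precision, and the paired test and random variance model named by the series design were not run. The counting step was first run on simulated arrays with planted changes beyond 2-fold. Only bright probes were changed and no difference between cultures was modelled, so that run checks the code alone.

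The genes with an accession are called named genes. Described in full are the 4 enzyme genes; for each, the 2 nearest of the 14 other named genes are given, and the rest enter as counts and ranges. The members and lists were chosen with earlier results of these data known. The array grid names build mm9, so only promoter windows carry coordinates, on GRCm38.p6. Alternatives used limma 3.58.1 in R 4.3.3 for normexp on the median spot and background signals, the mean spot signal not being used, and Python 3.11.15 for the rest.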

Additional observations from a re-analysis of the deposited data

How the results depend on the processing

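No paired analysis was possible because there is 1 array per condition, which also leaves no array to omit and no slide block to fit. Of 124 recomputed values, 93 stayed within the SD over spots or within 1.5 times for counts and 31 moved. Hprt with 8-M-PDOT, the only member ratio past 2-fold in the main setting, kept its sign throughout. The settings before detrending and without scaling were added after seeing the data. For melatonin against vehicle, Hprt (-0.67) was -0.48 after quantile normalization, -0.49 in the authors' deposited table and -0.48 when scaled on Gapdh, Ppia and Hsp90ab1. That last scaling adds the same amount to every melatonin ratio. The genes it uses are themselves named genes, with melatonin ratios of -0.22 (Gapdh), -0.25 (Ppia) and -0.11 (Hsp90ab1). It also gave 1.14 for G6pd2 (0.94), -0.10 for Gk (-0.30) and -0.37 for Ldhal6b (-0.57). Normexp gave 0.82 for G6pd2 and -0.28 for Ldhal6b. For 8-M-PDOT against vehicle, Hprt (-2.21) was -2.12 after quantile normalization and in the deposited table. Without scaling Hprt was -2.75, G6pd2 (-0.14) -0.68, Gk (0.34) -0.20 and Ldhal6b (-0.90) -1.44, a shift of -0.54 shared by every probe. Normexp gave -0.22 for Ldhal6b. Members past the threshold with melatonin (0 higher, 0 lower) were 1 higher with the scaling on named genes, and 1 higher and 1 lower at 1.5-fold. With 8-M-PDOT (1 lower) there were 2 lower after quantile normalization, in the deposited table, without scaling and at 1.5-fold. Over all probes, melatonin counts (2833 higher, 2390 lower) were 1371 and 1370 with normexp, 4380 and 3719 without a filter on dim probes and 6000 and 6414 at 1.5-fold. The 8-M-PDOT counts (8171 higher, 7545 lower) were 4973 lower with normexp and 12807 and 13027 at 1.5-fold. Signal over background limits Ldhal6b most.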

Other observations

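Hprt transcript is often the denominator in quantitative PCR, and the 14 other named genes were therefore also expressed relative to it. This was chosen once the values were known. With melatonin, 4 of the 14 had a log2 ratio at least 1 above that of Hprt, as did 21.6% of all measured probes. With 8-M-PDOT, 13 of the 14 did, as did 87.9% of all measured probes, so the named genes are not set apart by these counts. Relative to Hprt, G6pd2 stood at 1.61 with melatonin and 2.07 with 8-M-PDOT, Gk at 0.38 and 2.55, and Ldhal6b at 0.11 and 1.31 on the log2 scale. These differences contain the ratio of Hprt itself, -0.67 with melatonin and -2.21 with 8-M-PDOT. They give no direction for the other genes. Tbp, another frequent denominator, stood at 0.80 relative to Hprt with melatonin and at 0.03 with 8-M-PDOT. A constant scaling of the arrays cancels in these differences, but other normalizations move them. Ldhal6b relative to Hprt was -0.11 with melatonin and 1.00 with 8-M-PDOT after quantile normalization, and 0.41 and 2.07 with normexp. In the same order, G6pd2 relative to Hprt was 1.43 and 1.97 after quantile normalization, and 1.51 and 2.17 with normexp. Gk relative to Hprt was 0.17 and 2.44 after quantile normalization, and 0.46 and 2.58 with normexp.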
